A study of Mus musculus with 2 samples.

Results

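Transcripts of 35 cell cycle and DNA replication genes were examined in dendritic cells grown from mouse bone marrow. The genes were taken by name from a list of proliferation genes, and 34 of them appear in the array annotation under their own symbol. The remaining gene, Cdk1, is listed there as Cdc2a and was found through its RefSeq accession. They stand among 21922 genes with a measured signal. Of the 35, 15 act at the start or during S phase and 20 act in G2 or mitosis, and these sets are described apart.

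A dividing cell first loads the MCM helicase onto replication origins, raises its supply of deoxynucleotides and copies its DNA, steps whose genes are largely driven by E2F transcription factors. It then accumulates cyclin A and cyclin B with their kinase CDK1, builds a spindle, checks that every chromosome is attached and lets the anaphase-promoting complex (APC/C) destroy the cyclins. Genes of this later wave are known to peak in G2 and mitosis, and many carry a promoter element called CHR together with CCAAT boxes. Bone marrow cultures with GM-CSF start from dividing precursors, and cells stop dividing as they mature into dendritic cells or macrophages.

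The samples were unstimulated dendritic cells of CBA/J and of C57BL/6 mice. Both strains were grown in the same way with a supernatant that holds GM-CSF and were harvested on day 7 of culture. Cells from individual mice were plated in replicate, and the replicates of a strain were pooled for RNA after 4 h without any treatment. The mice are described as normal, without mention of their age, sex, number or C57BL/6 substrain in the sources used here. The platform was the Affymetrix Mouse Gene 1.0 ST array, with 1 array per strain. Replicate error is therefore unknown, values are described without a test, and strain, culture and array cannot be told apart. Of 14 dendritic cell markers, 12 reached the median signal of all genes on at least 1 array, as did 11448 of all 21922 genes. So did 12 of 12 macrophage markers and 9 of 10 monocyte markers. Itgax (CD11c) read 10.50 on the CBA/J array and 10.63 on the other, and Cd74 read 12.02 and 12.33 (log2 signal). The lineage factors Zbtb46 (6.77 and 7.03) and Batf3 (6.55 and 6.92) and the receptor gene Clec9a (6.65 and 6.41) were dim, and Flt3 (5.67 and 5.65) and Xcr1 (5.01 and 5.17) did not reach that median.

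Most of the cell cycle genes gave signals within the range of the negative controls. The 5222 probe sets that the deposited annotation calls negative controls, without saying what they match, had a median log2 signal of 5.49 on the CBA/J array and 5.27 on the C57BL/6 array, with 95th percentiles of 8.28 and 8.17. Of the 35 genes, 34 lay above these medians on both arrays and Ccne2 did not. Only Pcna lay above the 95th percentiles on both arrays. The upper quartiles of all genes, 7.75 for CBA/J and 7.65 for C57BL/6, also lay below these percentiles. The level rule asks that a gene reach the median of all genes on at least 1 array, which is 6.16 for CBA/J and 6.21 for C57BL/6, and 30 of the 35 met it. Of these 30, Kif20a and Cenpe, met it through the CBA/J array alone, so counts below are given first over all members. Every difference is on the log2 scale, with C57BL/6 subtracted from CBA/J.

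The mitotic genes had higher signal in CBA/J almost as a set, by small amounts, while the S phase genes went both ways around 0. Of 20 mitotic genes, 19 had higher signal in CBA/J and Cdk1 was equal, against 48.4% of all genes with higher signal in CBA/J. Their median difference was 0.38 (1.30-fold), with a range from 0.00 to 0.89. Of 15 S phase genes, 9 had higher signal in CBA/J and 6 had higher signal in C57BL/6. Their median difference was 0.07, with a range from -0.40 to 0.42, and it turned to -0.01 over members at the level rule once the median of all genes was subtracted. Over members at the level rule, 16 of 17 mitotic and 8 of 13 S phase genes had higher signal in CBA/J. Among all genes at that level, 61.2% did. The cultures are mixtures, and fewer dividing cells cannot be told apart from less of the cell cycle transcripts per cell.

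By size, 11 of the 20 mitotic genes were higher in CBA/J by at least 25%, against 11.1% of all genes, and none was higher in C57BL/6 by as much, against 10.3% of all genes. At 1.5-fold, 2 mitotic genes were higher in CBA/J, against 2.85% of all genes, and none in C57BL/6, against 1.98%. None of the 35 genes differed by 2-fold, which 0.762% of all genes did toward CBA/J and 0.47% toward C57BL/6. Of the S phase genes, Rrm1 was higher in CBA/J and Cdc6 in C57BL/6 by at least 25%, and none passed 1.5-fold. Over the 30 genes at the level rule, 10 of 17 mitotic genes and 1 of 13 S phase genes were higher in CBA/J by at least 25%, against 16.1% of the 11448 genes that met the rule. None of these 30 was higher in C57BL/6 by as much, against 8.6%, and the 2 mitotic genes past 1.5-fold stand against 4.45%. The medians were then 0.41 for mitotic genes and 0.07 for S phase genes, beside 0.08 for all genes at that level.

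The negative controls also leaned toward CBA/J at these signal levels. Of the 1845 negative control probe sets that met the level rule, 40.7% were higher in CBA/J by at least 25% and 20.1% by at least 1.5-fold, and their median difference was 0.22. Toward C57BL/6, 239 of the 1845 differed by at least 25% and 99 by at least 1.5-fold. Differences of this size in single genes were thus common among the negative controls. Of 1167 positive control probe sets at the level rule, 18.7% were higher in CBA/J by at least 25% and 4.46% by at least 1.5-fold. Toward C57BL/6, 104 and 31 of them were, and their median difference was 0.08. With the negative control median subtracted, the mitotic median over members at the level rule was 0.19, and 12 of 17 genes stayed above 0. The S phase median then became -0.15, with 2 of 13 genes above 0. The median of all genes at the level rule became -0.14, with 28.3% of them above 0. The gap between the medians of the mitotic and the S phase members at the level rule was 0.34 on the deposited scale, and subtracting a constant does not change it.

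**Figure D1:**
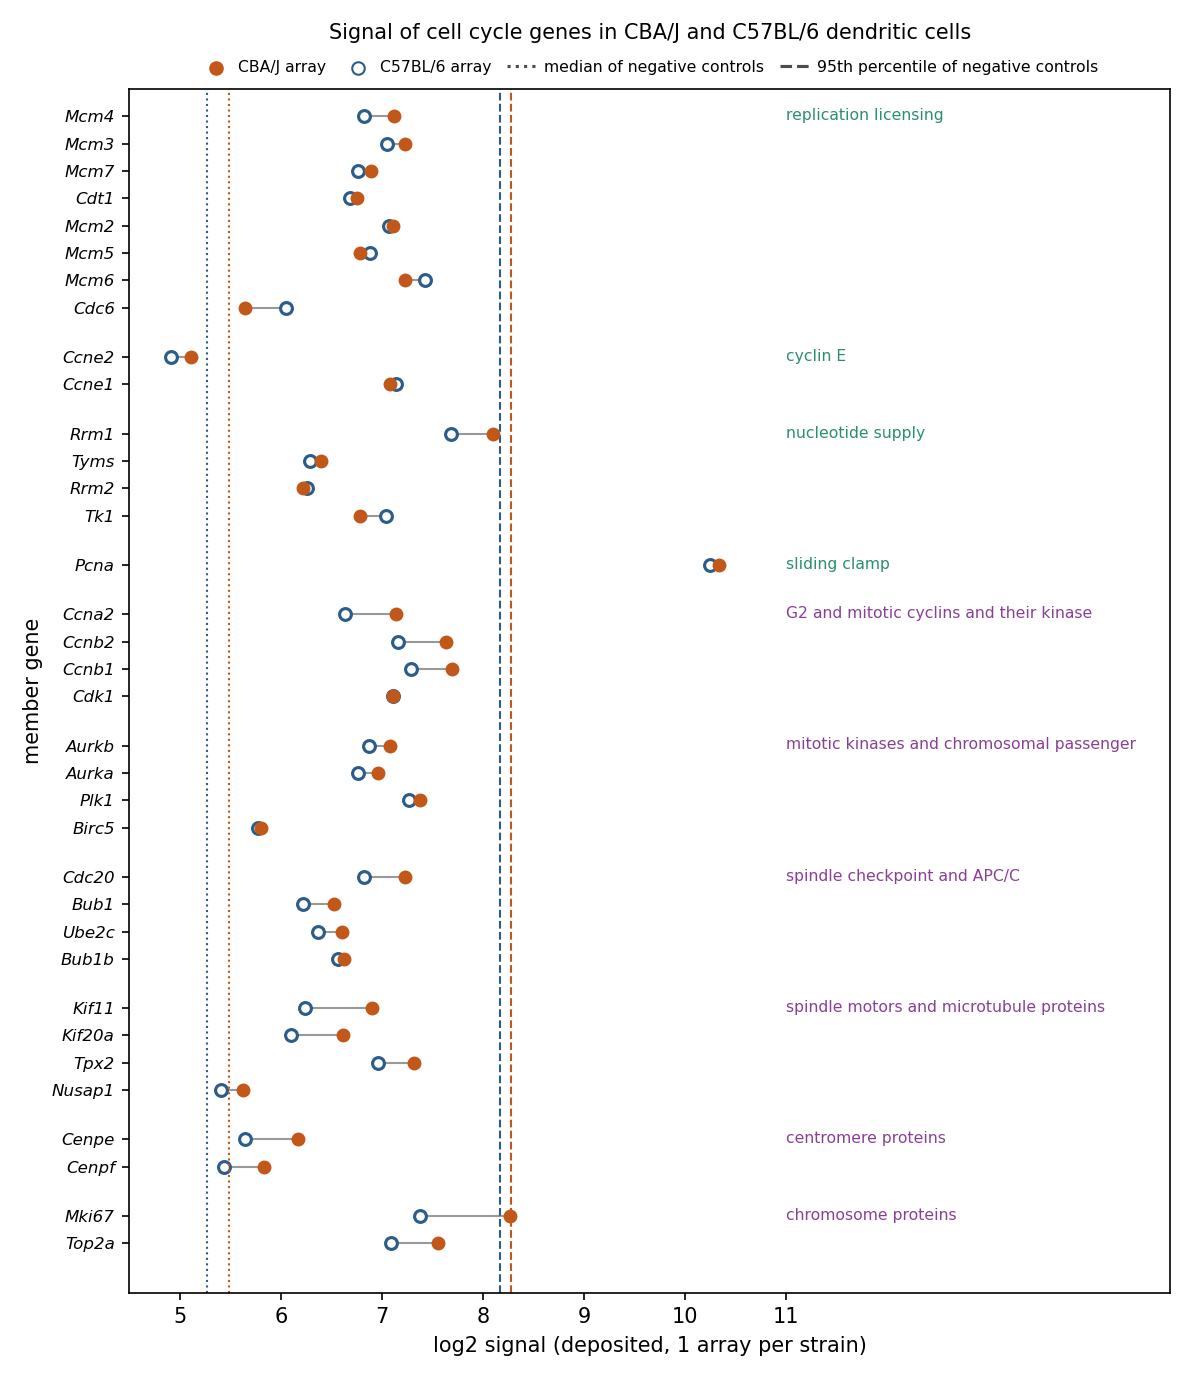
Log2 signal of each of the 35 genes (x axis) on the CBA/J array (filled) and the C57BL/6 array (open), grouped by role, with S phase roles in green and mitotic roles in purple; there is 1 array per strain and no error bar. Dotted and dashed lines mark the median and the 95th percentile of the negative controls of each array, between which nearly all genes lie. The filled point lies to the right for 19 of 20 mitotic genes and for 9 of 15 S phase genes. With the negative control median subtracted it would do so for 12 of 17 and 2 of 13 at the level rule. Of all genes at that level, 28.3% would then have higher signal in CBA/J.

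Among the chromosome proteins, Mki67 showed the largest difference of all 35 genes. It encodes Ki-67, the coat protein of mitotic chromosomes that is used as a marker of dividing cells. Probe set 10568714 read 8.26 on the CBA/J array and 7.38 on the C57BL/6 array, a 1.85-fold higher level in CBA/J. Top2a, the topoisomerase that untangles sister chromatids, was at 7.56 in CBA/J against 7.09 in C57BL/6, 1.38-fold higher in CBA/J. Mki67 was the brightest mitotic gene, and in CBA/J it read just below the 8.28 that marks the 95th percentile of negative controls.

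Spindle motors and microtubule proteins had a median difference of 0.44. Kif11, the kinesin that pushes the spindle poles apart, read 6.91 in CBA/J (probe set 10462796) against 6.24 in C57BL/6, 1.58-fold higher in CBA/J. Mki67 and Kif11 were the mitotic genes past 1.5-fold. Kif20a, a kinesin of the central spindle needed for cytokinesis, was at 6.61 in CBA/J against 6.10 in C57BL/6 (1.43-fold). Tpx2, which activates Aurora A on spindle microtubules, was at 7.32 and 6.96 (1.28-fold). Nusap1, a microtubule-binding protein of the spindle, was dim at 5.62 and 5.41, and its difference of 0.21 is less than the shift of the negative controls.

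The centromere proteins were both dim with similar differences. Cenpe, a kinesin that carries chromosomes to the spindle equator, was at 6.17 in CBA/J against 5.65 in C57BL/6, 1.43-fold higher in CBA/J. Cenpf, a large kinetochore protein, was at 5.83 and 5.43 (1.32-fold) and did not meet the level rule.

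The cyclins of G2 and mitosis lay close together, and their kinase stood apart from them. Ccna2 (cyclin A2) read 7.14 in CBA/J against 6.63 in C57BL/6 (1.43-fold). Ccnb2 (cyclin B2) was at 7.63 and 7.16 (1.39-fold), and Ccnb1 (cyclin B1) at 7.70 and 7.29 (1.33-fold). All 3 cyclin genes were thus 1.33-fold to 1.43-fold higher in CBA/J. Cdk1, the kinase these cyclins activate, was at 7.11 on both arrays, equal to every deposited digit. Such exact ties occurred in 823 of 35557 probe sets (2.31%).

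The spindle checkpoint and its target, the APC/C, showed graded differences. Cdc20, the activator through which the APC/C targets cyclin B, was at 7.23 in CBA/J against 6.82 in C57BL/6 (1.33-fold). Bub1, a checkpoint kinase at the kinetochore, was at 6.53 and 6.22 (1.24-fold). Ube2c, the ubiquitin-conjugating enzyme of the APC/C, was at 6.61 and 6.36 (1.19-fold). Bub1b, which encodes BUBR1, a component of the complex that holds back the APC/C, was nearly level at 6.63 and 6.56.

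Mitotic kinases and the chromosomal passenger survivin differed least among the mitotic roles. Aurkb, the kinase of the passenger complex that corrects faulty attachments, was at 7.08 in CBA/J against 6.87 in C57BL/6 (1.15-fold). Aurka, the kinase of centrosome maturation, was at 6.96 and 6.76 (1.14-fold). Plk1, which acts at centrosomes, kinetochores and the spindle midzone, was at 7.38 and 7.27 (1.08-fold). Birc5, which encodes survivin, was at 5.80 and 5.77 and did not meet the level rule. The differences of these 4 genes ran from 0.03 to 0.20, all smaller than the negative control shift of 0.22.

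Among the S phase genes, those for the licensing of origins went in both directions. The differences of the 6 subunits of the MCM helicase ran from -0.20 to 0.29, with a median of 0.08. Mcm4 was at 7.12 in CBA/J against 6.83 in C57BL/6 (1.22-fold higher in CBA/J), and Mcm3 at 7.22 and 7.05. Mcm7 was at 6.89 and 6.77, and Mcm2 at 7.11 and 7.07. The other subunits had lower signal in CBA/J, with Mcm6 at 7.23 and 7.43 and Mcm5 at 6.79 and 6.88. The small difference of Mcm2 (0.04) had the opposite sign under quantile normalization (-0.04), trend removal (-0.02) and median subtraction (-0.03), so its direction is not settled. With the negative control median subtracted, Mcm4 was the only subunit above 0, beside 28.3% of all genes at the level rule.

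The loaders of the helicase differed from each other. Cdc6, which loads the MCM ring with the origin recognition complex, read 5.65 in CBA/J against 6.05 in C57BL/6. That is 1.32-fold higher in C57BL/6, the largest difference in that direction among all 35 genes, in a gene that did not meet the level rule. Cdt1, the other loader, was at 6.75 and 6.68, a difference of 0.07.

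Cyclin E starts S phase together with CDK2. Ccne1 was at 7.08 in CBA/J against 7.14 in C57BL/6. Ccne2 was at 5.11 and 4.91, below the negative control medians on both arrays, and its difference was 0.20. Neither gene differed by 25%.

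Genes of nucleotide supply held the largest S phase difference toward CBA/J and also a difference toward C57BL/6. Rrm1, the large subunit of ribonucleotide reductase, was at 8.10 in CBA/J against 7.69 in C57BL/6 (1.33-fold higher in CBA/J). Rrm2, the small subunit that limits the enzyme in S phase, was at 6.22 and 6.26 and hence nearly level. Tyms, the thymidylate synthase gene, was at 6.39 and 6.28. Tk1, the S phase thymidine kinase gene, was at 6.78 and 7.04, 1.20-fold higher in C57BL/6. The enzyme's subunit genes thus differed by 0.42 and -0.04. Removing the trend of the differences with signal turned that of Rrm2 to 0.02.

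Pcna, the sliding clamp of the DNA polymerases, was by far the brightest member, at 10.34 in CBA/J against 10.25 in C57BL/6, a difference of 0.09. Its mean signal exceeded that of 97.5% of all genes. PCNA also serves in DNA repair, and its gene is expressed outside S phase. The median difference of all genes at the level rule was 0.08.

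Pcna, Tk1 and Ccnb1 had several probe sets on different chromosomes, and the brightest was used. Pcna had a probe set on chromosome 2, where the RefSeq gene lies, and another on chromosome 19, and their values were identical. The brightest Tk1 probe set was assigned to chromosome 8, whereas the RefSeq gene lies on chromosome 11. The Tk1 probe set on chromosome 11 read 6.00 in CBA/J against 6.22 in C57BL/6, a difference of -0.22 in place of -0.26. For Ccnb1 the brightest probe set was assigned to chromosome 7 and the gene lies on chromosome 13. The chromosome 13 probe set read 7.27 and 6.86, and all 3 Ccnb1 probe sets gave a difference of 0.41. These probe sets name the same gene and are not independent measurements, and the share of their signal that comes from near-identical copies was not tested.

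**Figure D2:**
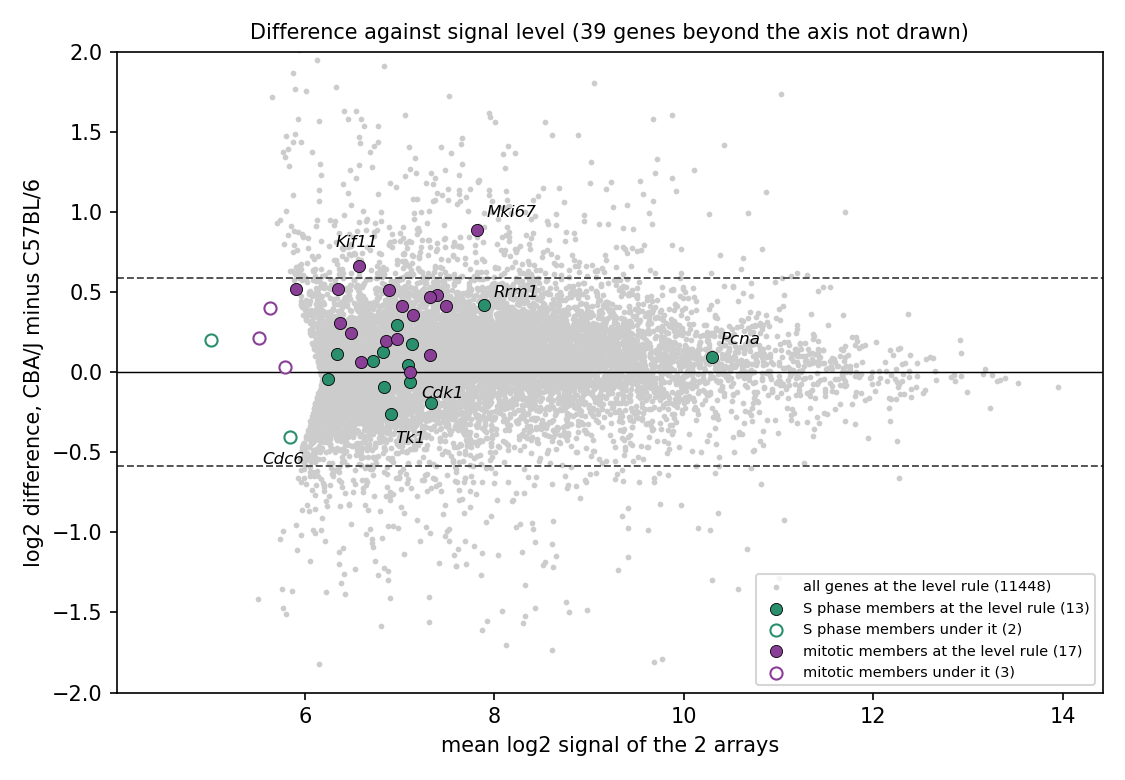
Log2 difference (y axis, CBA/J minus C57BL/6) against mean log2 signal of the 2 arrays (x axis), with 11448 genes at the level rule in grey, S phase genes in green and mitotic genes in purple; open circles are members under the level rule, dashed lines mark 1.5-fold, and 39 grey genes lie beyond the axis. Mitotic genes lie at or above 0 and S phase genes on both sides of it. With the median of the negative controls (0.22) subtracted, 12 of 17 mitotic genes at the level rule would stay above 0. Of all genes at that level, 28.3% would then lie above 0.

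The promoters of the mitotic and the S phase sets are described next, and any link of their motifs to the signal differences was not tested. RefSeq promoter sequences of mouse build GRCm38.p6 were at hand for 29 of the 35 genes (13 S phase and 16 mitotic genes, 30 promoters since Mcm7 has 2), and the 250 bases before each start were searched on both strands. The first E2F-like form searched was TTCGCGC. Another was TTGGCGC. A further form was TTCCCGC. The last E2F-like form was TTGCCGC. The CHR-like motif was searched as TTTGAA and also, in its other known form, as TTCGAA. The CCAAT box was searched by the letters of its name. The last 120 bases before the start are shown for the mitotic genes past 1.5-fold, for Cdc20 and Cdk1 as mitotic genes with and without a difference in signal, and for Mcm6 and Rrm1 as S phase genes of opposite sign. Capitals mark matches to any of these motifs, and a match on the opposite strand reads as its reverse complement, such as ATTGG or TTCAAA.
Mki67: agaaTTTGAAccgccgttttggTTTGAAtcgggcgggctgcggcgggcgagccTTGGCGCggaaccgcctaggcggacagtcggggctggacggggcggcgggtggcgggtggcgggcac
Kif11: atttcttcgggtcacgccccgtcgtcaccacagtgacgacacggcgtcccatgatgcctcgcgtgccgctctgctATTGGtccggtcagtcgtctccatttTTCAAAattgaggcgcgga
Cdc20: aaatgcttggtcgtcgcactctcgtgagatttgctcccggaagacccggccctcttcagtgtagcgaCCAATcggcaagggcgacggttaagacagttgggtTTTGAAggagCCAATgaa
Cdk1: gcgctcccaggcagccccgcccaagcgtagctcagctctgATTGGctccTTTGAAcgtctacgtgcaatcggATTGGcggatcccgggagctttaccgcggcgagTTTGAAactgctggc
Mcm6: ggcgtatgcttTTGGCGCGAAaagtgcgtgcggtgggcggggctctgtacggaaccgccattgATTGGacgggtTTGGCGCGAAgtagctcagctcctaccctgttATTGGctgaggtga
Rrm1: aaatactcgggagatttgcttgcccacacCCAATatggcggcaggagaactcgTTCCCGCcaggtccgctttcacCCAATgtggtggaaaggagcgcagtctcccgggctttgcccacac

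These stretches lie at chr7:135716380-135716499 on the minus strand for Mki67, chr19:37376262-37376381 on the plus strand for Kif11, chr4:118437344-118437463 on the minus strand for Cdc20, chr10:69352913-69353032 on the minus strand for Cdk1, chr1:128359706-128359825 on the minus strand for Mcm6 and chr7:102441575-102441694 on the plus strand for Rrm1. In Mcm6 a pair of E2F-like matches overlaps at each of the marked places, 1 on each strand, and in the promoter of Ccnb1 (not shown) an E2F-like match overlaps a CCAAT match. In Kif11 the CHR-like match lies 19 to 14 bases before the start, and in Cdc20 18 to 13 bases before it. Cdk1, equal on both arrays, carries the same CHR-like TTTGAA 15 to 10 bases before its start, with a further copy upstream.

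Over the 250 bases, a CHR-like motif was found in 8 of 16 mitotic promoters (50%) and in 2 of 14 S phase promoters (14.3%), beside 17.1% of all 32851 promoters in the table. CCAAT was found in 14 of 16 mitotic promoters (87.5%) and 9 of 14 S phase promoters (64.3%), beside 33.8% of all promoters. An E2F-like motif was found in 7 of 14 S phase promoters (50%) and 3 of 16 mitotic promoters (18.8%), beside 7.89% of all. Both a CHR-like motif and CCAAT were present in 8 of 16 mitotic promoters (50%), those of Bub1b, Ube2c, Cdc20, Mki67, Ccnb2, Cdk1, Top2a and Kif11, and in 2 of 14 S phase promoters (14.3%), those of Mcm2 and Mcm7, beside 6.02% of all promoters. The 8 mitotic genes include Mki67 (0.89) and Kif11 (0.66) as well as Cdk1 (0.00) and Bub1b (0.06). A match is a description of the letters only.

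**Figure D3:**
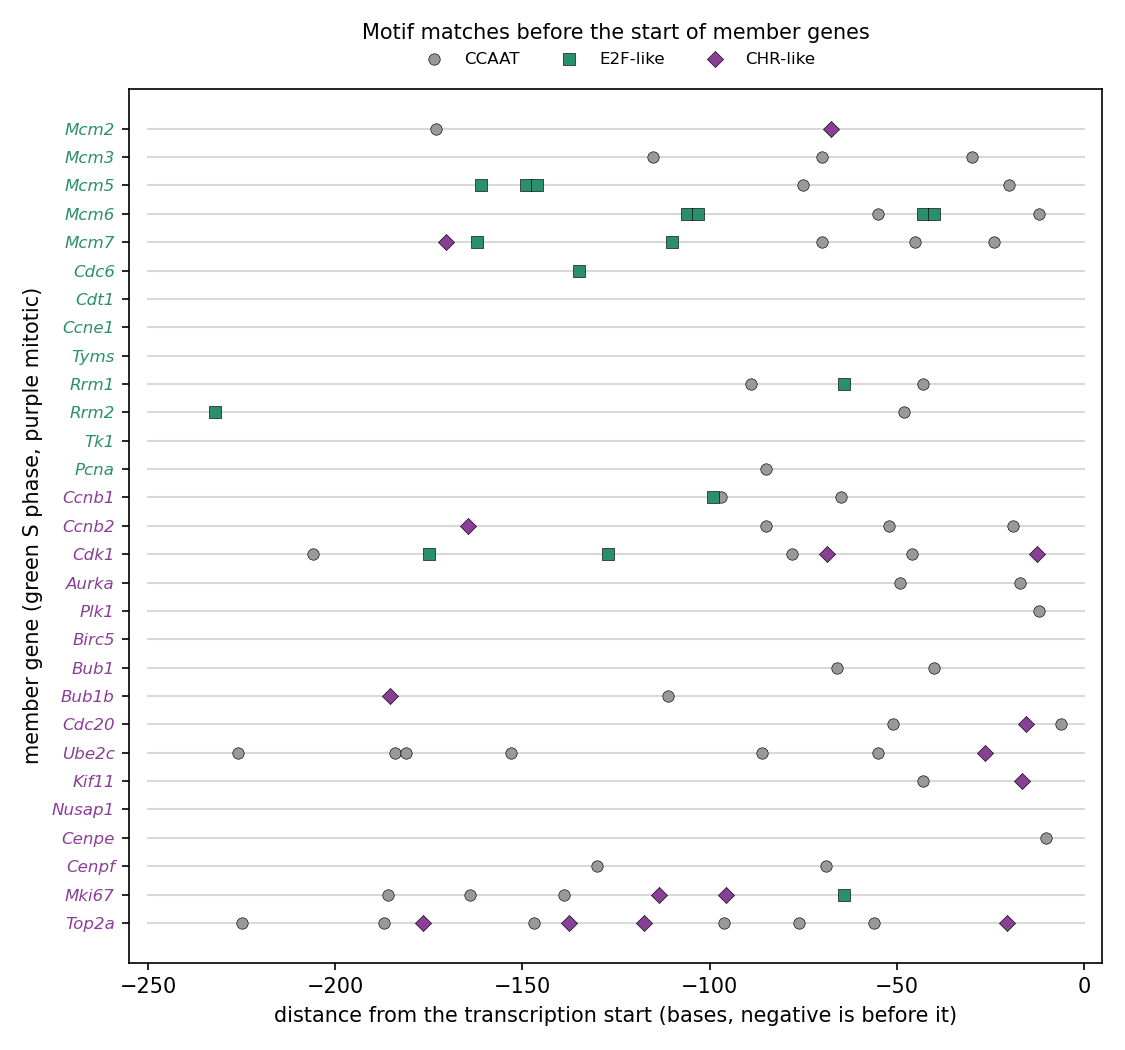
Positions of motif matches in the 250 bases before the transcription start of 29 members (x axis, bases from the start; y axis, genes, with S phase names in green and mitotic names in purple); squares are E2F-like, diamonds CHR-like and circles CCAAT matches on either strand, and both Mcm7 promoters share a line. CHR-like matches lie in 8 of 16 mitotic promoters and E2F-like matches in 7 of 14 S phase promoters.

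Other genes of the same processes were then read on the same scale. Of 65 other mitotic genes, 52 had higher signal in CBA/J and 12 in C57BL/6, beside 48.4% of all genes with higher signal in CBA/J, and the median difference was 0.24. By at least 25%, 23 were higher in CBA/J and 3 in C57BL/6, beside 11.1% and 10.3% of all genes. At 1.5-fold, 9 were higher in CBA/J and 0 in C57BL/6, beside 2.85% and 1.98% of all genes. The level rule was met by 42 of them, 14 of these through the CBA/J array alone and 3 through the C57BL/6 array alone. Meeting it through 1 array alone favors genes that are high on that array. Of the 14, 10 were higher in CBA/J by at least 25%. Among the 25 that met the rule on both arrays, 5 were higher in CBA/J and 1 in C57BL/6 by at least 25%. Of all genes that met it on at least 1 array, 16.1% and 8.6% were. Of the 25, 1, Kif23, passed 1.5-fold toward CBA/J, beside 4.45% of all genes that met it on at least 1 array. The median over the 42 was 0.24, and it was 0.17 with the median of all genes subtracted and 0.02 with the negative control median subtracted. The latter takes the median of all genes at the level rule to -0.14. The largest differences toward CBA/J at the level rule were those of Nuf2 (0.84), a subunit of the NDC80 kinetochore complex, Kif23 (0.80), a motor of the central spindle, and Kif2c (0.78), a kinesin that takes microtubules apart, of which Nuf2 and Kif2c met the rule through the CBA/J array alone. Lower in CBA/J were Ncapg2 (-0.53), a condensin II subunit, Pttg1 (-0.48), which encodes securin, and Ndc80 (-0.41), the partner of Nuf2 in the same complex. Ncapg2 and Ndc80 met the rule through the C57BL/6 array alone. Nuf2 read 6.93 in CBA/J against 6.09 in C57BL/6, and Ndc80 read 5.82 and 6.23. The brightest of the list was Cenpa, the histone variant of centromeres, at 8.85 and 9.05.

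Of 44 other replication genes, 33 had higher signal in CBA/J, beside 48.4% of all genes, and 5 were higher in CBA/J and 1 in C57BL/6 by at least 25%, beside 11.1% and 10.3%. The level rule was met by 32, of which 26 had higher signal in CBA/J, beside 61.2% of all genes at that level, and 4 did so by at least 25%, beside 16.1%. Their median difference was 0.14, or -0.07 with the negative control median subtracted, beside -0.14 for all genes at that level. Pold3, a subunit of DNA polymerase delta, was at 0.47, Rfc1, of the clamp loader, at 0.40, and Pola1, of the primase complex, at 0.37. Pola1 met the rule through the CBA/J array alone. Chaf1b, a subunit of the chromatin assembly factor that follows the fork, was at -0.83. It read 6.05 in CBA/J against 6.88 in C57BL/6 and met the rule through the C57BL/6 array alone. Orc6 (-0.20) and Pold1 (-0.16) were next in that direction. Dnmt1, which copies DNA methylation at the fork, was the brightest, at 8.76 and 8.69.

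The controls of entry into the cycle held single larger differences in both directions, around list medians of 0.09 for the G1 genes and 0.07 for the CDK inhibitors. The G1 median turned to -0.02 under quantile normalization, and that of the inhibitors to -0.01 when the median of all genes was subtracted. Among 9 G1 cyclins and kinases, Cdk6, a kinase partner of D-type cyclins, was at 8.26 in CBA/J against 8.96 in C57BL/6, and Ccnd2 (cyclin D2) at 9.32 and 9.78. Their differences of -0.70 and -0.46 were the only ones in that list that reached 25%. Among all genes at the level rule, 8.6% were higher in C57BL/6 by as much and 16.1% in CBA/J. Cdk4, the other kinase partner and the brightest of the list, was at 10.06 and 9.74, a difference of 0.32, and Skp2 (0.15), Cdk2 (0.14) and Cdc25a (-0.07) followed. Among the CDK inhibitors Cdkn2c (p18) had the largest difference at 0.64, with signals of 6.71 and 6.07. It met the level rule through the CBA/J array alone, and it no longer passed 1.5-fold with the median of all genes subtracted. Among all genes at the level rule, 4.45% passed 1.5-fold toward CBA/J. Cdkn2c was followed by Cdkn1b (p27) at 0.24 and Cdkn1a (p21) at 0.14. Cdkn1a was the brightest inhibitor, at 10.43 in CBA/J against 10.29 in C57BL/6. Cdkn1c (-0.14) and Cdkn2b (-0.12) were slightly lower in CBA/J.

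The transcription factors of the cycle differed little as a list. Of 17 genes of the RB, E2F and DREAM group at the level rule, 10 had higher signal in CBA/J, beside 61.2% of all genes at that level, and the median was 0.07, or -0.01 with the median of all genes subtracted. E2f8, a repressor of E2F targets, was at 0.55, Rb1 at 0.35 and the brightest, Tfdp1, the partner of E2F proteins, at 0.27. Lin37 (-0.25), Tfdp2 (-0.17) and Mybl2 (-0.16) had the lowest values. The 13 APC/C subunits and activators, known to be expressed through the cycle and in resting cells, had a median of 0.08, which turned to -0.04 under quantile normalization, with Anapc1 (0.33), the brightest, Cdc26 (0.24) and Cdc16 (0.18) at one end. Anapc10 (-0.14), Cdc27 (-0.13) and Anapc11 (-0.09) were at the other. In the DNA damage list, 11 of 17 genes had higher signal in CBA/J and 6 in C57BL/6, beside 48.4% of all genes with higher signal in CBA/J, and the median was 0.08. The level rule was met by 8 genes, all with higher signal in CBA/J, beside 61.2% of all genes at that level, and their median was 0.20. With the negative control median subtracted the median of the 8 became -0.02, beside -0.14 for all genes at that level. Atr (0.57), Atm (0.49) and Trp53 (0.37) were the largest, and the brightest was Ccng1 at 11.17 and 11.09.

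**Figure D4:**
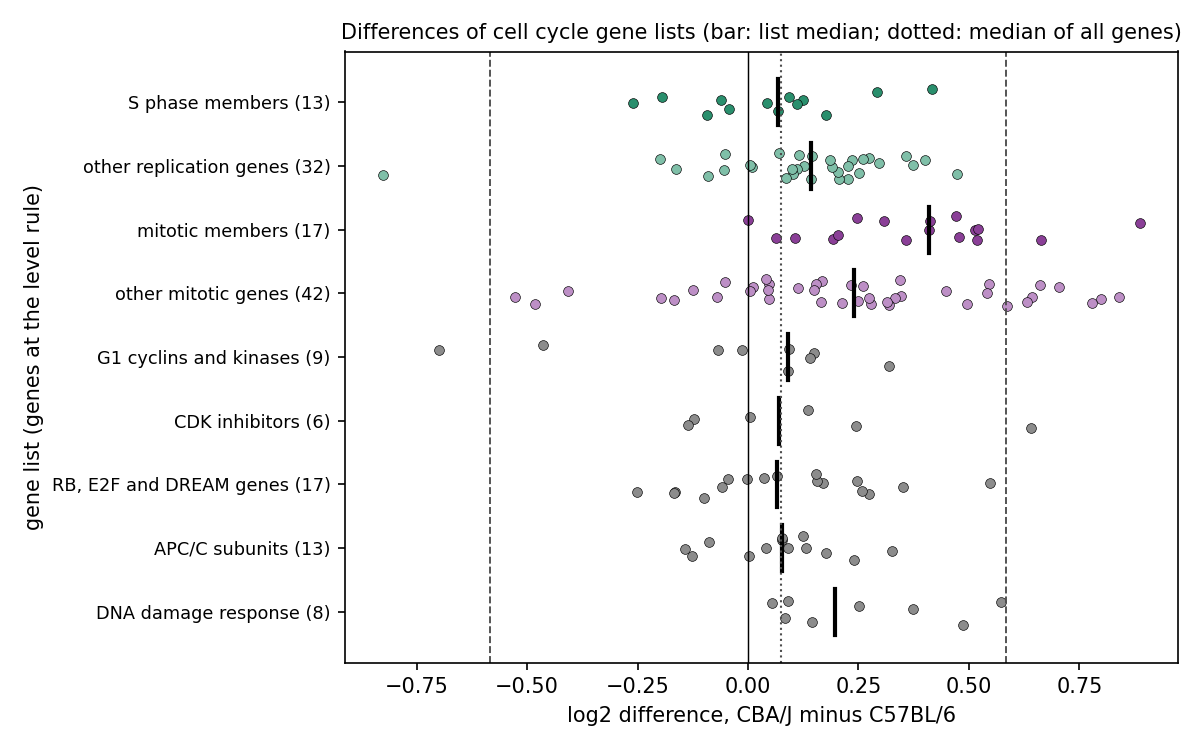
Log2 difference (x axis, CBA/J minus C57BL/6) of each gene at the level rule in the S phase and mitotic members and in 7 further lists (y axis, number of genes in brackets); black bars are list medians, the dotted line is the median of all genes (0.08) and dashed lines mark 1.5-fold; points are spread vertically only to separate them. The bar of the mitotic members lies at 0.41 and that of the other mitotic genes at 0.24. The S phase bar lies at 0.07, or at -0.01 with the median of all genes subtracted. With the negative control median subtracted only the mitotic bars would lie above 0, and the dotted line would lie at -0.14.

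Several lists of markers of other cell types also differed between the arrays, and their part in the mitotic difference was not tested. Of 11 neutrophil markers, all had higher signal in CBA/J, beside 48.4% of all genes. Of these markers, 7 met the level rule (Ly6g through the CBA/J array alone), led by Ly6g (2.56), Ngp (2.18) and S100a9 (1.40). Their summed linear signal over all 11 was 5713 in CBA/J against 3351 in C57BL/6, and the brightest was Mmp8, at 11.60 and 10.99. Of 10 monocyte markers found, 9 met the level rule, with 6 higher and 3 lower in CBA/J. Of all genes at that level, 61.2% had higher signal in CBA/J. The largest differences were Ccr2 (2.05), Ms4a6c (1.75) and Fn1 (1.74) against Chi3l3 (-2.48), Ly6c1 (-1.61) and S100a4 (-0.65). Ms4a6c met the rule through the CBA/J array alone. The summed monocyte signal came to 9433 in CBA/J against 5803 in C57BL/6, with Csf1r the brightest over both arrays, at 11.67 and 11.16. Fn1, at 11.90 and 10.16, weighs most in the gap between these sums. The macrophage sum over 12 genes was 8270 and 6262, with Ms4a7 (1.87), Mrc1 (1.09) and Fcgr1 (0.99) the largest differences. All 12 met the level rule, Ms4a7 through the CBA/J array alone. Of the 12, 9 were higher in CBA/J, beside 61.2% of all genes at that level. The lowest were C1qb (-0.15), C1qc (-0.12) and Apoe (-0.04), and the brightest was Cd68, at 11.37 and 11.19.

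Of 14 conventional dendritic cell markers, 6 were higher in CBA/J and 8 in C57BL/6, beside 48.4% of all genes with higher signal in CBA/J. Their median difference was -0.14, and they summed to 9712 in CBA/J and 14136.5 in C57BL/6. The bright H2-Ab1 (10.36 and 11.65), Ccr7 (9.89 and 11.25) and Cd74 weigh most in this sum, while Irf8 (0.10), Flt3 (0.01) and Itgax (-0.13) were nearly level. Among the 12 at the level rule, 5 had higher signal in CBA/J, beside 61.2% of all genes at that level. These 5 were led by Dpp4 (1.05), Kmo (0.99) and Ciita (0.92). The other 7 had lower signal, led by Ccr7 (-1.35), Cd83 (-1.33) and H2-Ab1 (-1.28). Of 8 markers of early granulocyte precursors, 7 did not meet the level rule, among them Mpo (5.73 and 5.74), Elane (5.34 and 5.45), Prtn3 (5.72 and 5.69) and Ctsg (4.84 and 4.90). Cebpe did, at 6.98 and 6.90, and the summed signal was 452 and 462. Of 10 stem and progenitor markers, 6 met the rule, 3 in each direction, with Cd34 (0.84), Gata2 (0.58) and Spi1 (0.52), the brightest, higher in CBA/J. Ly6a (-1.19), Meis1 (-0.73) and Kit (-0.39) were lower, and the sum was 2127 and 1690. Spi1, at 10.15 and 9.63, weighs most in this sum. Ly6a and Meis1 met the rule through the C57BL/6 array alone. Over all 10, 3 had higher signal in CBA/J and 7 in C57BL/6, beside 48.4% of all genes with higher signal in CBA/J.

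Of 10 erythroid markers, 4 met the level rule. Tfrc, the transferrin receptor gene of dividing cells and the brightest, was at 1.18, and Car2 (-1.05) and Hbb-b1 (-0.91) were lower in CBA/J. Hbb-b1 met the rule through the C57BL/6 array alone. Hba-a1 was at 0.00, Klf1 and Alas2 did not meet the rule, and the sum was 1240 and 1003. Tfrc, at 9.60 and 8.42, weighs most in this sum and was the single gene higher in CBA/J, beside 48.4% of all genes. Of the 10, 7 were lower, and the list median was -0.18. Of 7 mast cell and basophil markers, Cpa3 (-2.57) and Hdc (-1.27) met the rule, both through the C57BL/6 array alone. Over all 7, 2 had higher signal in CBA/J and 5 in C57BL/6, beside 48.4% of all genes with higher signal in CBA/J. The list median was -0.19, and the sum was 228 and 499. No marker of 11 lymphocyte genes met the rule, with a sum of 386 and 369.8. No sort of the cells is described in the labels.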

How the data were processed

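Per the submitters' processing notes, the arrays were processed with Affymetrix Expression Console 1.1. The methods of summarization and normalization are not given in the sources used here. For 35557 probe sets the authors deposited a log2 signal, and the deposited table also holds, per the file headers, the authors' log2 difference and its linear ratio, which equalled those computed here. The series matrix table held identical values. Normalizing arrays to 1 distribution would remove a shift common to most genes. The effect of CBA/J sequence differences under the probes was not tested.

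Probe sets with 1 symbol (24422, of which 25 date-like symbols were restored by accession) were reduced to 21922 genes by the brightest probe set. The members and gene lists were chosen with earlier results of these data known. With 1 array per strain there was no test, and the number of arrays limits the precision. Counts use thresholds of 25% (linear), 1.5-fold and 2-fold. All members are named; for other lists the rule names up to 3 genes in each direction at the level rule and the brightest. Alternatives covered scaling (the trend by lowess with a span of 0.3), level filter, threshold and probe set choice. Counting and scaling were tested on simulated data. Python 3.11.15, numpy 2.4.6, pandas 2.3.3, statsmodels 0.14.6 and matplotlib 3.10.9 were used. All columns of sample values were matched. The values of a single marker gene are not reported here.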

Additional observations from a re-analysis of the deposited data

How the results depend on the processing

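With 1 array per strain the result can rest on either array, and no replicate could be left out. No paired analysis was possible because each strain has 1 array. Medians below are over members at the level rule, and a shift of 0.1 in a median or of 1.5 times in a count was taken as a change. The mitotic median of 0.41 stayed between 0.33 and 0.41 under quantile normalization, trend removal, median subtraction, no level filter, the mean of probe sets, the series matrix table, the probe set on the gene's chromosome and the omission of Cdk1. With the negative control median subtracted, an alternative chosen after seeing the data as the last 2 were, it was 0.19, with 2 genes past 25% and 1 past 1.5-fold. The S phase median of 0.07 reversed to -0.0082 when the median of all genes was subtracted and to -0.15 with the negative control median. The latter left 2 S phase genes above 0, 0 past 25% toward CBA/J and 2 toward C57BL/6. It also took the median of all genes at the level rule to -0.14, with 28.3% of them above 0. The S phase count past 25% toward CBA/J (1) fell to 0 under quantile normalization and trend removal, and that toward C57BL/6 (0) rose to 1 under quantile normalization, median subtraction and no level filter. A filter at the upper quartile left 2 S phase genes (median 0.25, both above 0) and 1 mitotic gene (0.89), with a gap of 0.63, so signal over background limits this result. At a 2-fold threshold 0 mitotic genes passed, and at 25% 10 mitotic and 1 S phase genes did. The gap between the medians, 0.34, stayed between 0.31 and 0.34 otherwise. Subtracting a constant or using the identical series matrix values could not move it. It was 0.31 under quantile normalization, trend removal and no level filter.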
